A study of Mus musculus with 20 samples.

Results

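Tumors injected with a vector carrying IFNbeta were compared with tumors injected with a vector carrying p19Arf, on 5 arrays of each out of 20 in the series. The arrays were placed in these groups by their labels alone, with no measured value. The tumors were implants of LLC-1, a Lewis lung carcinoma cell line, in C57Bl/6 mice. The IFNbeta group had received an adenoviral vector with IFNbeta and no p19Arf, and the p19Arf group a vector with p19Arf and no IFNbeta. The other groups, also of 5 arrays each, had received p19Arf together with IFNbeta, or eGFP as the control gene, and they stand beside the comparison only as levels. In every group 25 µl of saline with vector was injected into the tumor 5 times at intervals of 48 h, at a log10 viral load of 8, so every group including eGFP carried adenovirus. No group without vector was analysed here. The samples were whole tumors, which hold cells of the host beside the carcinoma cells, and the labels do not say which cells took up vector. Each array of a group carries a tumor number of its own in the labels. Numbers 4, 5 and 8 stand in both the IFNbeta and the p19Arf group, on replicates 2, 3 and 4 of each, and the labels do not say whether an equal number means a shared mouse or day. They also do not say whether each array came from its own mouse, so p-values measure the spread between these samples, which may in part be technical.

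Interferon beta is a secreted cytokine that binds the receptor of Ifnar1 and Ifnar2 on most cell types. The kinases Jak1 and Tyk2 at the receptor then pass the signal to transcription factors that bind interferon-stimulated response elements in DNA, and a large set of antiviral genes is transcribed. p19Arf is made from an alternative reading frame of Cdkn2a, binds Mdm2 in the nucleolus and so stabilises p53, and it also acts on ribosome synthesis. The comparison sets these arms against each other without a neutral reference, so a gene that is higher in IFNbeta tumors may stand above the eGFP level there, below it in p19Arf tumors, or both.

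Expression was measured for 19938 genes as log2 values. Array medians ran from 7.49 to 7.60 in IFNbeta and from 7.52 to 7.60 in p19Arf tumors. Correlations between arrays ran from 0.975 to 0.993 within IFNbeta, from 0.951 to 0.99 within p19Arf and from 0.949 to 0.994 between the groups, so the groups did not separate as wholes. At most 0.0337% of values were equal, to every deposited digit, on any pair of these 10 arrays, and none was a copy of another. The array spread, taken as the SD over all log2 values of 1 array, was 2.11 ± 0.04 in IFNbeta and 2.06 ± 0.05 in p19Arf tumors, against 2.06 ± 0.05 with both genes and 2.11 ± 0.03 with eGFP (SD, n = 5 each). IFNbeta replicate 3 and p19Arf replicate 4 stood apart. IFNbeta replicate 3 held skin epidermis transcripts, with a mean of 8.76 over that marker list against 6.66 to 6.81 on the other IFNbeta arrays. p19Arf replicate 4 had a mean of 5.94 over olfactory receptor genes against 5.29 to 5.49 on the other p19Arf arrays. Values without them are given beside the results that they move most. Of markers of carcinoma and lung epithelium, the intermediate filament gene Vim was at 13.45 to 13.75 in IFNbeta and 13.29 to 13.70 in p19Arf tumors. The lung markers Scgb1a1 and Sftpc were near the bottom of the scale, with Scgb1a1 at 3.69 to 4.05 in IFNbeta and 3.82 to 4.29 in p19Arf tumors and Sftpc at 5.96 ± 0.19 and 6.30 ± 0.14 (SD, n = 5 each). These lung markers thus did not bear on the labelled origin of the tumor.

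The delivered genes themselves each had a probe set on the array. Ifnb1, which encodes interferon beta, was at 6.10, 6.03, 6.65, 6.06 and 6.20 on the IFNbeta arrays, against 6.00, 5.61, 6.16, 6.17 and 6.04 on the p19Arf arrays. The groups overlapped and the difference was 0.21 on the log2 scale (exact 2-sided permutation test, p = 0.262, the smallest possible p being 0.00794). After quantile normalization it was 0.31 (exact permutation p = 0.0238), and with array weights 0.02. Without IFNbeta replicate 3, the highest array, it was 0.10 (exact permutation p = 0.548), and without p19Arf replicate 2, the lowest, 0.12. Cdkn2a was at 7.47, 7.29, 7.45, 7.29 and 7.39 on the IFNbeta arrays, against 7.35, 7.42, 7.70, 7.81 and 7.61 on the p19Arf arrays. Its difference was -0.20 (exact 2-sided permutation test, p = 0.0714), also with overlap, and -0.25 without p19Arf replicate 1 (exact permutation p = 0.0317). Whether the inserts contain the probed stretches could not be read from the labels, and a probe set outside an insert checks nothing, so these values neither back nor question the labels.

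The genes that passed the test between the vectors were higher in IFNbeta tumors, and most of them belong to families known to be induced by interferon. By limma with Benjamini-Hochberg adjustment over all 19938 genes, 5 genes were higher at an adjusted p under 0.05 (0.0251% of genes tested) and 0 were lower (0%). The 5 were Phf11d, Ifit3b, Ifi213, Ms4a4d and Ifi207. In each of them all 5 IFNbeta arrays lay above all 5 p19Arf arrays, a separation found in that direction for 151 genes (0.757%) and in the opposite direction for 228 (1.14%). At an unadjusted p under 0.05, 1691 genes were higher (8.48%) and 2470 lower (12.4%).

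Phf11d, a PHD finger protein gene, was at 9.11, 8.92, 9.96, 9.03 and 8.97 on the IFNbeta arrays, against 8.60, 8.30, 8.02, 7.91 and 7.89 on the p19Arf arrays. It rose by 1.05 in IFNbeta relative to p19Arf tumors (SE 0.16, 95% interval 0.71 to 1.39, 2.07-fold, limma adjusted p = 0.0379). Replicate 3 was the highest IFNbeta array, and the lowest IFNbeta array was still above the highest p19Arf array. Ifit3b, an interferon-induced protein with tetratricopeptide repeats, was at 6.37, 6.20, 7.45, 6.54 and 6.30 on the IFNbeta arrays, against 5.85, 5.37, 5.40, 5.07 and 5.44 on the p19Arf arrays. It rose by 1.14 (SE 0.19, 95% interval 0.75 to 1.54, 2.21-fold, limma adjusted p = 0.0421), again with replicate 3 as the highest IFNbeta array. Ifit3b lay at the 13.3 percentile of genes by mean value, so a filter below the 30th percentile removed it.

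Ifi213 and Ifi207 belong to the Ifi200 family, interferon-inducible proteins of which several bind nucleic acid. Ifi213 was at 8.72, 8.49, 9.39, 8.56 and 8.92 on the IFNbeta arrays, against 8.21, 7.58, 8.10, 7.66 and 7.28 on the p19Arf arrays. It rose by 1.05 (SE 0.19, 2.07-fold, limma adjusted p = 0.0459). Ifi207 was at 11.51, 11.16, 11.65, 11.43 and 11.20 on the IFNbeta arrays, against 10.97, 10.87, 10.71, 10.34 and 10.80 on the p19Arf arrays. It rose by 0.65 (SE 0.11, 1.57-fold, limma adjusted p = 0.0421), the smallest change of the 5. Ms4a4d, one of the MS4A tetraspan membrane proteins, was at 8.00, 8.41, 8.57, 8.51 and 8.54 on the IFNbeta arrays, against 7.73, 7.59, 7.65, 7.60 and 6.99 on the p19Arf arrays. It rose by 0.89 (SE 0.15, 1.86-fold, limma adjusted p = 0.0421), with replicate 5 as the lowest p19Arf array. In bulk tumors a gene's level per cell and the number of cells that express it cannot be told apart, which holds for every result here.

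In each of these 5 genes the mean of the tumors with both vectors and the mean of the eGFP tumors lay between the IFNbeta and the p19Arf mean. Among all 9073 genes with a higher mean in IFNbeta tumors, the former did so in 2685 (29.6%) and the latter in 4760. Phf11d, 1 of the 5, averaged 9.20 ± 0.43 in IFNbeta, 8.14 ± 0.31 in p19Arf, 8.52 ± 0.16 with both genes and 8.46 ± 0.14 with eGFP (SD, n = 5 each). Relative to eGFP, Ifi207 stood at 0.23 in IFNbeta and at -0.42 in p19Arf tumors, while for the other 4 genes the IFNbeta mean was farther from eGFP (0.72 to 0.83) than the p19Arf mean (-0.10 to -0.33). The direction and the size of the differences held under the settings tried, between 0.80 and 1.17 for Phf11d, 0.84 and 1.25 for Ifit3b, 0.75 and 1.16 for Ifi213, 0.76 and 0.99 for Ms4a4d and 0.49 and 0.71 for Ifi207. The calls did not: leaving out IFNbeta replicate 4 or p19Arf replicate 2, 3, 4 or 5 left 0 genes past the threshold, leaving out IFNbeta replicate 1, 3 or 5 left 1, 2 or 3, and leaving out p19Arf replicate 1 gave 28, of which 19 were higher and 9 lower. Quantile normalization, or the array spread as a covariate, also left 0, and array weights gave 4495.

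**Figure D1:**
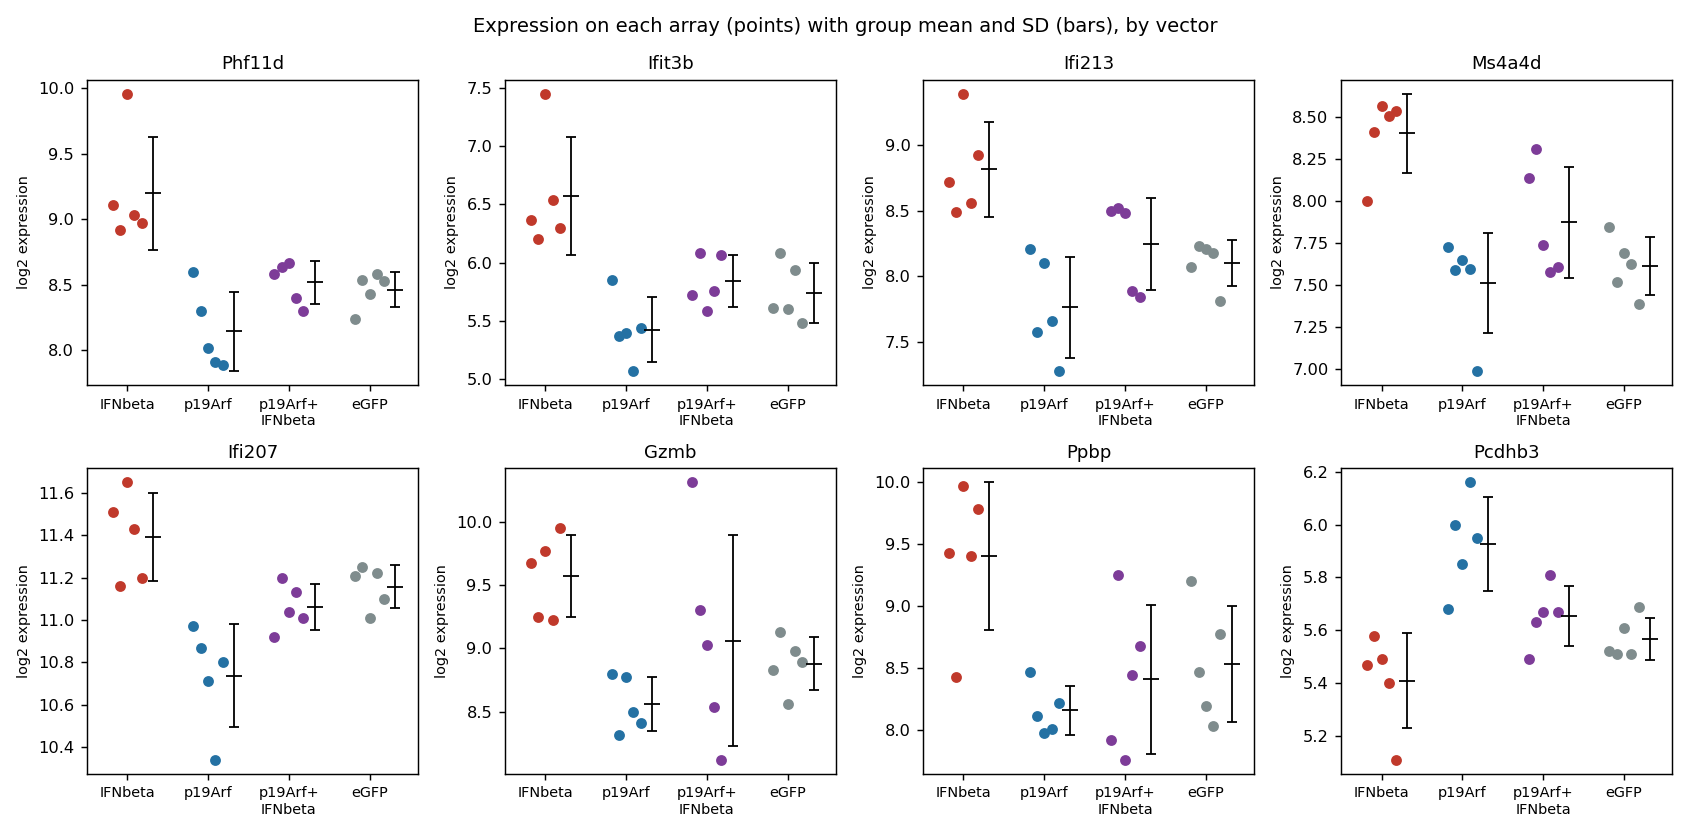
Log2 expression (vertical axes) of the 5 genes past the threshold and of Gzmb, Ppbp and Pcdhb3, which did not pass, in the 4 vector groups (horizontal axes). Points are arrays, and bars are the group mean and SD of 5 arrays. In the 5 genes each IFNbeta array lies above each p19Arf array, and the other groups have means in between.

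The promoters of these genes were read to see whether the letters of the interferon-stimulated response element lie near their starts. The search was for GAAA, any 2 bases and GAAA again, on both strands, in the window from 250 bases before to 50 bases after each start (RefSeq sequence, GRCm38.p6). Of the 5 genes, Ifi207, Ifi213 and Ifit3b held the letters and Phf11d and Ms4a4d did not. The windows of the 3 genes are printed on the gene's own strand with the match in capitals. Ifi207 is at chr1:173741760-173742059 on the minus strand, Ifi213 at chr1:173599223-173599522 on the minus strand and Ifit3b at chr19:34607707-34608006 on the plus strand.
Ifi207: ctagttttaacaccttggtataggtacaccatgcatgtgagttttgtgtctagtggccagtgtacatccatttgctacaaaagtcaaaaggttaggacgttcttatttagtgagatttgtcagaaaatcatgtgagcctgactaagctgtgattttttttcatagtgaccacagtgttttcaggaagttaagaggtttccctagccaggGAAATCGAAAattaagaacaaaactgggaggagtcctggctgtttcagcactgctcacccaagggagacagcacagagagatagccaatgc
Ifi213: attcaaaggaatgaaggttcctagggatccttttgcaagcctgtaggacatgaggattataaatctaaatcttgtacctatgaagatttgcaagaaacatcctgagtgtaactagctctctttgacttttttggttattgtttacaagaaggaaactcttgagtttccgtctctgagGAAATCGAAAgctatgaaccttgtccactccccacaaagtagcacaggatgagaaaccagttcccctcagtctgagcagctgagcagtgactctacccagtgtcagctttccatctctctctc
Ifit3b: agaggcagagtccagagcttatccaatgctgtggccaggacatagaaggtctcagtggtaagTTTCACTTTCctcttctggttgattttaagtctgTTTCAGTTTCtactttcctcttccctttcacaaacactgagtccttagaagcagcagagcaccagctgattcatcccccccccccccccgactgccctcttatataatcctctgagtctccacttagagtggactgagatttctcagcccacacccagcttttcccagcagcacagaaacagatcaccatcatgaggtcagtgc
The match begins at position -41 relative to the start in Ifi207 and at -73 in Ifi213, and Ifit3b holds 2 matches, both on the opposite strand. Of all 27025 genes with a promoter window, 1079 held a match (3.99%). Among the type I interferon response genes 13 of 23 genes found in the table did (56.5%), and among the guanylate-binding and interferon gamma associated genes 6 of 9 (66.7%). The share was 1 of 21 for p53 targets (4.76%) and 59 of 866 for olfactory receptor genes (6.81%). A match describes these letters and does not show a binding site.

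Relatives of the 5 genes were then examined family by family, with families taken by symbol after values had been seen. The family counts and medians include the genes past the threshold: Ifi213 and Ifi207 in the Ifi200 family, Ifit3b among Ifit genes and Ms4a4d in the Ms4a family. Those genes led to the choice of family, so the counts are not independent of it. In the Ifi200 family 9 of 10 measured genes had a higher mean in IFNbeta tumors, 8 at an unadjusted p under 0.05 (against 8.48% of all genes), and the median difference was 0.65 against -0.03 over all genes. Between the groups 5 of the 10 did not overlap, as did 0.757% of all genes in that direction. Ifi208 was at 6.26, 6.10, 6.95, 6.35 and 6.78 on the IFNbeta arrays, against 5.83, 5.77, 5.96, 5.71 and 5.25 on the p19Arf arrays, a difference of 0.79 that did not pass (limma adjusted p = 0.107). Ifi205, which averaged 10.87 ± 0.20 in IFNbeta and 10.15 ± 0.36 in p19Arf tumors (SD, n = 5 each), differed by 0.73, also at an adjusted p of 0.107. Aim2, whose protein senses DNA in the cytosol and starts an inflammasome, was at 10.13 to 10.28 in IFNbeta and 9.46 to 10.12 in p19Arf tumors. The exception in direction was Ifi202b, at 4.33 ± 0.07 and 4.38 ± 0.07. Members of this family are similar in sequence and may share probe sequence, so their values are uncertain to that extent. Without IFNbeta replicate 3 and p19Arf replicate 4 the family's median difference was 0.38.

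In the Ms4a family, by contrast, members lay on both sides: 10 of 19 had a higher mean in IFNbeta tumors, 4 of them at an unadjusted p under 0.05 (21.1%, against 8.48% of all genes). Lower at that threshold were 3 (15.8%, near the 12.4% of all genes), and 0 without p19Arf replicate 4. Ms4a4c was at 10.43, 10.07, 10.41, 10.17 and 10.23 on the IFNbeta arrays, against 9.97, 8.96, 9.40, 9.12 and 8.66 on the p19Arf arrays, with no overlap (difference 1.04, limma adjusted p = 0.107). Its neighbour in name Ms4a4b differed by 0.17 and Ms4a4a by 0.17, both with overlap, and Ms4a1, the CD20 antigen of B cells, by -0.49. All 5 Ifit genes had a higher mean, each at an unadjusted p under 0.05 (4 without IFNbeta replicate 3), with differences of 0.35 to 1.14. Of the Schlafen genes, named for growth control in mouse lymphocytes, 8 of 10 had a higher mean and 5 reached that threshold (3 without p19Arf replicate 4), with Slfn8 at 9.47 ± 0.15 in IFNbeta and 8.81 ± 0.41 in p19Arf tumors (SD, n = 5 each) and no overlap. Of 11 Oas genes, which encode 2'-5' oligoadenylate synthetases and their relatives, 9 had a higher mean and 4 reached the threshold (36.4%), and their median of 0.37 was 0.14 without IFNbeta replicate 3 and 0.04 without p19Arf replicate 4 as well. Trim30d, a tripartite motif gene, averaged 9.51 ± 0.31 in IFNbeta and 8.78 ± 0.39 in p19Arf tumors (SD, n = 5 each) without overlap.

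Most genes of the type I interferon response had higher means in IFNbeta tumors. Of its 32 measured genes, out of 36 written, 31 had a higher mean in IFNbeta, where 45.5% of all genes did. In the highest tertile of genes by probe-set value, which held 26 of the 32, 77.4% of all genes had a higher mean. Of the 31 genes, 27 had an unadjusted p under 0.05, where 8.48% of all genes were higher at that threshold. Phf11d and Ifit3b passed over all genes, and 5 of the 32 did not overlap. The median difference was 0.45, with a range of -0.26 to 1.14, against -0.03 over all genes. The mean of the list on an array was 9.64, 9.52, 10.21, 9.54 and 9.72 in IFNbeta tumors, against 9.45, 9.44, 9.28, 9.02 and 8.92 in p19Arf tumors. Each IFNbeta array thus lay above each p19Arf array, with replicate 3 far above the rest. Relative to eGFP the list's mean level stood at 0.43 in IFNbeta tumors and at -0.08 in p19Arf tumors, where the SD was 0.24. The p19Arf mean was thus within its own spread of the eGFP mean.

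By role, the list holds sensors of viral RNA, effectors and regulators. Among the sensors, Ddx58, which encodes RIG-I, was at 10.87, 10.73, 10.80, 10.75 and 10.87 on the IFNbeta arrays, against 10.70, 10.12, 10.45, 10.07 and 9.96 on the p19Arf arrays, with no overlap and a difference of 0.54 (limma adjusted p = 0.17). Ifih1, which encodes MDA5, was at 9.58 to 9.86 in IFNbeta and 9.05 to 9.58 in p19Arf tumors, a difference of 0.43 with the nearest arrays equal after rounding. Among effectors, Rsad2, whose protein viperin interferes with viral replication, averaged 10.46 ± 0.36 in IFNbeta and 9.65 ± 0.39 in p19Arf tumors (SD, n = 5 each), a difference of 0.81. Ifit3 differed by 0.80 and Ifit1 by 0.62, each with 1 or more p19Arf arrays inside the IFNbeta range. In each of these effectors IFNbeta replicate 3 was the highest array, and without it the differences were 0.67 for Rsad2, 0.64 for Ifit3 and 0.48 for Ifit1.

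Among regulators, Usp18, the protease that removes ISG15 and dampens the receptor, was at 10.45, 10.06, 11.01, 10.29 and 10.55 on the IFNbeta arrays, against 10.09, 9.72, 9.89, 9.43 and 9.28 on the p19Arf arrays. The groups overlapped in a narrow band and the difference of 0.79 did not pass (limma adjusted p = 0.114), and without IFNbeta replicate 3 it was 0.66. Irf7, the transcription factor that amplifies interferon production, was at 10.23, 9.86, 11.17, 10.13 and 10.48 on the IFNbeta arrays, against 9.75, 10.27, 9.61, 9.52 and 9.12 on the p19Arf arrays, a difference of 0.72 with overlap that was 0.52 without IFNbeta replicate 3. Ifi44l, an interferon-induced gene, was the member on the other side, at 6.01 to 6.39 in IFNbeta and 6.23 to 6.73 in p19Arf tumors. In the list of interferon beta, its receptor and the JAK-STAT pathway, 8 of 14 genes had a higher mean (57.1%). Of these, 4 had an unadjusted p under 0.05 (28.6%), and 0 genes were lower at that threshold. The 4 were Usp18, which is also in the type I interferon response list, Irf7, Irf9 and Ifnar2. Of the 14 genes 11 were in the highest tertile of genes by probe-set value. In that tertile 77.4% of all genes had a higher mean and 15.7% were higher at that threshold. The receptor subunit Ifnar2 averaged 10.40 ± 0.10 in IFNbeta and 9.98 ± 0.27 in p19Arf tumors, and Irf9 averaged 9.58 ± 0.13 and 9.24 ± 0.25 (SD, n = 5 each), neither past the threshold. The median of the receptor and JAK-STAT list was 0.11, and -0.01 without IFNbeta replicate 3 and p19Arf replicate 4.

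Between the other groups the same genes lay in the middle. The mean with both vectors lay between the IFNbeta and the p19Arf mean in 25 of the 32 interferon response genes (78.1%), and the eGFP mean did so in 24. Among all 9073 genes with a higher mean in IFNbeta tumors these counts were 2685 (29.6%) and 4760, so an eGFP mean in between was frequent in general. With both genes delivered, the list's mean level was 9.17 to 9.52, of which only the highest array reached the lowest IFNbeta array, at 9.52. Of the 32 genes, 26 were in the highest tertile of genes by probe-set value, in which 15.7% of all genes were higher at an unadjusted p under 0.05. Across the settings tried, 30 or 31 genes of the list had a higher mean, except that the filter on low values left 30 genes, all of them higher. The count at an unadjusted p under 0.05 was 17 to 29, and the median difference was 0.31 to 0.53, with both of the lower values coming from leaving out IFNbeta replicate 3 and p19Arf replicate 4 together.

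**Figure D2:**
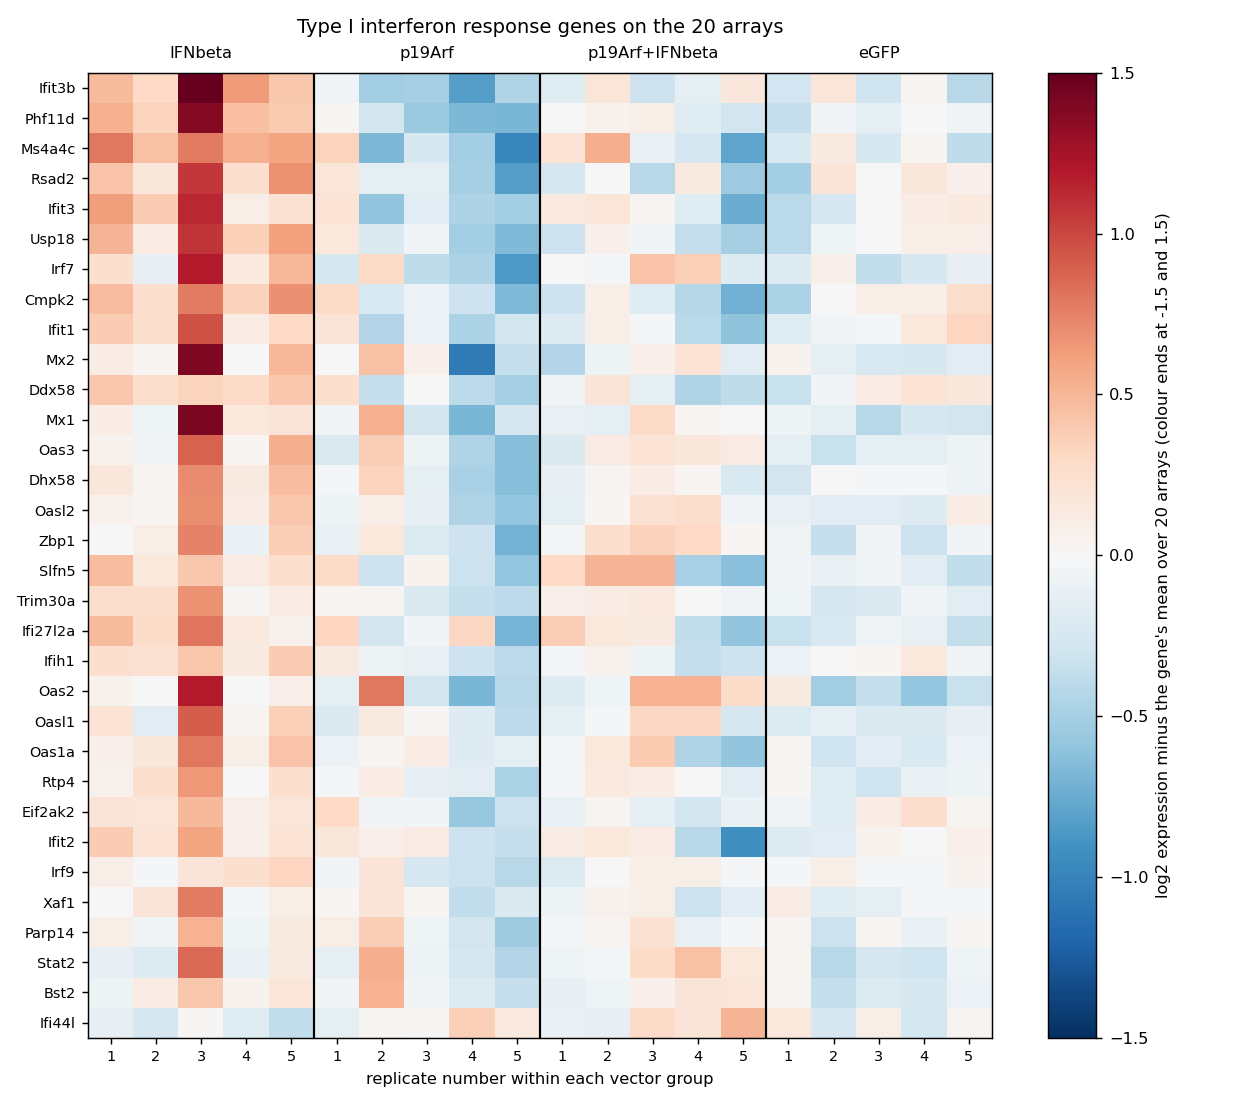
Log2 expression minus the gene's mean over 20 arrays (colour) for the 32 type I interferon response genes (vertical axis, ordered by the difference between IFNbeta and p19Arf) on the 20 arrays (horizontal axis, by vector group). The IFNbeta columns are mostly above the mean, most of all replicate 3, the p19Arf columns are mostly below it, and Ifi44l at the bottom runs the other way.

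Genes tied more to interferon gamma were less one-sided by count, and the difference between lists was not tested. Of 15 guanylate-binding protein and interferon gamma associated genes 9 had a higher mean in IFNbeta tumors (60.0%), 4 at an unadjusted p under 0.05 (26.7%). Of the 15 genes 13 were in the highest tertile by probe-set value. In that tertile 77.4% of all genes had a higher mean and 15.7% were higher at that threshold. The list's median was 0.10, and -0.02 without p19Arf replicate 5. Gbp7, a GTPase that acts on intracellular pathogens, averaged 10.58 ± 0.29 in IFNbeta and 10.11 ± 0.31 in p19Arf tumors (SD, n = 5 each), a difference of 0.46 with overlap. Cxcl10, the chemokine that attracts Cxcr3-bearing lymphocytes, averaged 10.95 ± 0.42 and 10.53 ± 0.19, against 10.97 ± 0.36 with eGFP. In antigen presentation, 6 of 14 MHC class I genes had a higher mean and 0 differed in either direction at an unadjusted p under 0.05, with a median of -0.01 that was 0.03 after median centring. For MHC class II, 3 of 8 genes had a higher mean and 0 reached that threshold. H2-Ab1, a class II chain, averaged 11.53 ± 0.19 in IFNbeta and 11.82 ± 0.11 in p19Arf tumors (SD, n = 5 each). In Nlrc5, the activator of class I genes, the selected probe set differed by -0.26, and other probe sets of the gene ranged up to 0.41, so its probe sets disagreed.

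Granzymes and other effectors of cytotoxic lymphocytes had higher means in IFNbeta tumors. Of 14 genes 13 had a higher mean and 6 had an unadjusted p under 0.05 (42.9%, against 8.48% of all genes), 2 did not overlap, and 0 passed over all genes. The median difference was 0.37, and 0.26 to 0.43 across settings. Gzmb, the granzyme that activates caspases in target cells, was at 9.67, 9.25, 9.77, 9.22 and 9.95 on the IFNbeta arrays, against 8.80, 8.32, 8.77, 8.50 and 8.41 on the p19Arf arrays. The groups did not overlap and the difference was 1.01 (SE 0.26, 2.02-fold, limma adjusted p = 0.17). Gzmc was at 6.87, 6.95, 7.65, 7.65 and 6.93 on the IFNbeta arrays, against 6.54, 6.28, 6.41, 6.54 and 6.29 on the p19Arf arrays, also without overlap (difference 0.80, limma adjusted p = 0.17). Prf1, the pore-forming perforin, averaged 8.34 ± 0.28 in IFNbeta and 7.94 ± 0.32 in p19Arf tumors (SD, n = 5 each) with overlap. The list's mean level was 7.98 to 8.34 on the IFNbeta arrays and 7.47 to 7.85 on the p19Arf arrays, and relative to eGFP it stood at 0.24 in IFNbeta and at -0.19 in p19Arf tumors.

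General markers of the lymphocytes that carry granzymes differed less in median. Of 15 T cell markers 10 had a higher mean in IFNbeta tumors, with 0 higher and 1 lower at an unadjusted p under 0.05 and a median of 0.07, which was -0.02 with array weights. The calls turned with single arrays: there were 3 higher and 0 lower without IFNbeta replicate 3, or after median centring, and 2 and 0 without p19Arf replicate 3. Cd3d, a chain of the T cell receptor complex, was at 6.55 to 6.97 in IFNbeta and 6.76 to 7.18 in p19Arf tumors, while Icos, a costimulatory receptor, averaged 8.14 ± 0.14 and 7.80 ± 0.13 (SD, n = 5 each). Of 12 NK cell markers 8 had a higher mean and 2 reached the threshold (0 without IFNbeta replicate 5 or p19Arf replicate 5), with a median of 0.10. Cd244a, an NK receptor, averaged 8.64 ± 0.16 and 8.39 ± 0.14 and did not overlap. Of 13 genes of immune checkpoints and regulatory T cells 9 had a higher mean and 3 reached the threshold. Havcr2, which encodes TIM-3, was at 8.20, 8.32, 8.37, 8.40 and 8.97 on the IFNbeta arrays, against 8.15, 8.11, 8.05, 7.73 and 7.91 on the p19Arf arrays, a difference of 0.46 (limma adjusted p = 0.198). The part of lymphocyte number in the granzyme values was not tested.

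Platelet and mast cell transcripts gave some of the largest differences. Ppbp, a chemokine stored in platelets, was at 9.43, 8.43, 9.97, 9.40 and 9.78 on the IFNbeta arrays, against 8.47, 8.11, 7.98, 8.01 and 8.22 on the p19Arf arrays. Only IFNbeta replicate 2 overlapped, and the difference of 1.25 (SE 0.27, 2.37-fold) did not pass (limma adjusted p = 0.128). Pf4, platelet factor 4, differed by 0.55, but the other 6 of 8 erythroid and platelet markers had lower means, Treml1 and Gp9 at -0.33 and -0.27, and the list's median was -0.16. The platelet markers thus did not move together. Gp9 was in the lowest tertile by probe-set value, where 24.3% of all genes were lower at an unadjusted p under 0.05. Treml1 was in the middle tertile, where 11.1% were. Cpa3, a carboxypeptidase stored by mast cells, was at 9.49, 8.40, 7.80, 8.64 and 8.95 on the IFNbeta arrays, against 7.98, 7.42, 8.08, 7.52 and 8.40 on the p19Arf arrays, and Mcpt4, a mast cell protease, differed by 0.41. Both group means, 8.66 and 7.88, lay below the eGFP mean of 8.95 for Cpa3. Over 14 mast cell and eosinophil markers 8 had a higher mean.

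Among myeloid cells, 15 of 19 macrophage and monocyte markers (78.9%) had a higher mean in IFNbeta tumors but 1 reached an unadjusted p under 0.05 (5.26%). Of the 19 genes 17 were in the highest tertile by probe-set value. In that tertile 77.4% of all genes had a higher mean, near the share of the list, and 15.7% were higher at that threshold. The count of 1 was 5 without IFNbeta replicate 3 or p19Arf replicate 1, 4 without IFNbeta replicate 2 and 9 with array weights. The list's median of 0.22 was 0.03 once array spread was a covariate. The 1 gene was Fcgr1, the high-affinity Fc receptor for IgG, at 10.02, 9.79, 10.11, 10.04 and 10.15 on the IFNbeta arrays, against 9.85, 9.25, 9.26, 9.47 and 9.13 on the p19Arf arrays (difference 0.63, limma adjusted p = 0.181). Gpnmb, a glycoprotein of macrophages and pigment cells, averaged 9.46 ± 0.20 in IFNbeta and 8.70 ± 0.41 in p19Arf tumors without overlap, and Clec4b1, a C-type lectin of myeloid cells, averaged 5.83 ± 0.22 and 5.21 ± 0.20 (SD, n = 5 each). Both had a limma adjusted p of 0.122, as had Car12, a membrane carbonic anhydrase, at 8.24 to 8.96 in IFNbeta and 7.68 to 8.20 in p19Arf tumors. The neutrophil list was split, with 9 of 18 genes higher in mean. At an unadjusted p under 0.05, 4 were higher (22.2%) and 4 lower (22.2%), against 8.48% and 12.4% of all genes. Mmp8, the neutrophil collagenase, was at 7.36, 7.52, 7.77, 7.68 and 8.24 on the IFNbeta arrays, against 7.20, 7.05, 6.65, 6.55 and 6.55 on the p19Arf arrays, without overlap. Ngp, a granule protein of immature neutrophils, was at 5.61 to 5.86 in IFNbeta and 5.89 to 6.14 in p19Arf tumors, and so ran the other way. Ngp was in the lowest tertile by probe-set value, as were 6 of the 18 genes. In that tertile 24.3% of all genes were lower at that threshold.

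Dendritic cell and B cell markers were also mixed. Of 15 dendritic cell markers 10 had a higher mean. At an unadjusted p under 0.05, 2 were higher (13.3%) and 1 lower (6.67%), against 8.48% and 12.4% of all genes. Cd209a, a lectin of monocyte-derived dendritic cells, averaged 8.12 ± 0.28 in IFNbeta and 7.47 ± 0.39 in p19Arf tumors, whereas Zbtb46, a transcription factor of conventional dendritic cells, was at 7.04 to 7.28 in IFNbeta and 7.31 to 7.59 in p19Arf tumors. Of 11 B and plasma cell markers 3 had a higher mean. Fcrl5, a B cell member of the Fc receptor-like family, was at 7.49, 7.40, 7.04, 7.43 and 7.92 on the IFNbeta arrays, against 6.83, 6.71, 6.97, 7.17 and 6.65 on the p19Arf arrays, and averaged 6.80 with eGFP. Cd79a was at 7.35 on p19Arf replicate 3, against 5.26 to 6.20 on the other p19Arf arrays, and Ms4a1 at 7.65 against 5.26 to 5.88, so that array carried B cell transcripts the others of its group did not.

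Of endothelial markers 13 of 18 had a higher mean in IFNbeta tumors, with 6 higher and 1 lower at an unadjusted p under 0.05, where 45.5% of all genes had a higher mean and 8.48% were higher and 12.4% lower. The 6 were 4 without IFNbeta replicate 4 or p19Arf replicate 4. Emcn, a sialomucin of veins and capillaries, was at 8.76, 8.84, 8.54, 8.92 and 8.67 on the IFNbeta arrays, against 8.47, 7.89, 7.94, 7.41 and 8.16 on the p19Arf arrays, with no overlap and a difference of 0.77 (SE 0.18, limma adjusted p = 0.153). Cdh5, VE-cadherin, was at 9.46 to 10.08 in IFNbeta and 8.92 to 9.67 in p19Arf tumors, and averaged 9.85 ± 0.25 with eGFP (SD, n = 5). The list's mean level was 8.28 to 8.37 on the IFNbeta arrays and 8.05 to 8.23 on the p19Arf arrays. Relative to eGFP it stood at 0.02 in IFNbeta and -0.12 in p19Arf tumors. The IFNbeta arrays were thus close to eGFP and the p19Arf arrays below it. With the array spread as a covariate 3 genes were higher at an unadjusted p under 0.05. Fibroblast and matrix genes were split, with 9 of 20 higher, among them Dcn, a matrix proteoglycan, at 11.26 to 12.32 in IFNbeta and 10.04 to 12.09 in p19Arf tumors, and Col3a1, a fibrillar collagen, at 10.72 ± 0.20 and 11.04 ± 0.13 (SD, n = 5 each).

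Of 26 chemokine genes 17 had a higher mean in IFNbeta tumors and 3 reached an unadjusted p under 0.05, with a median of 0.13 that was -0.00247 with the array spread as a covariate. Ccl7, a monocyte attractant, averaged 10.97 ± 0.14 in IFNbeta and 10.63 ± 0.21 in p19Arf tumors (SD, n = 5 each). Ccl19, which guides Ccr7-bearing cells, averaged 7.16 ± 0.12 and 7.49 ± 0.29 and did not overlap. Of 20 genes of NF-kB and inflammatory cytokines 14 had a higher mean and 2 reached the threshold. Those were Il1rn, the interleukin 1 receptor antagonist, at 9.44 to 9.99 in IFNbeta and 8.98 to 9.28 in p19Arf tumors, and Ptgs2, the inducible cyclooxygenase, at 10.37 to 10.97 and 9.50 to 10.20. Neither overlapped. The mean with both vectors was 9.63 for Il1rn and 10.50 for Ptgs2, close to the IFNbeta means of 9.62 and 10.55.

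**Figure D3:**
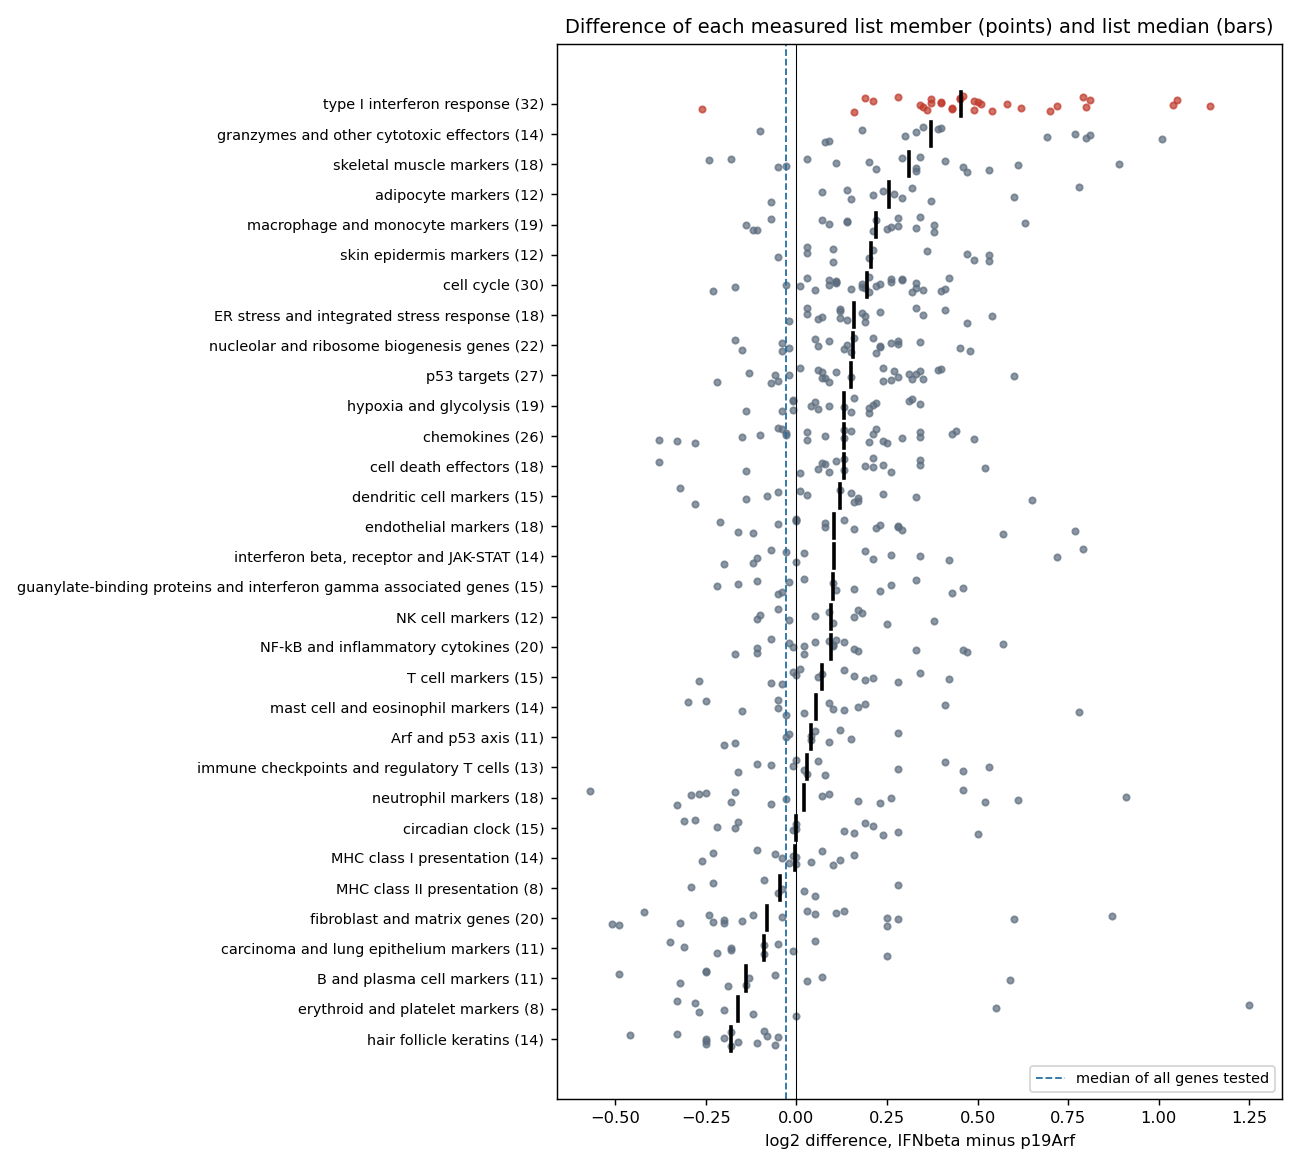
Log2 difference, IFNbeta minus p19Arf (horizontal axis), of each measured member (points) of the 32 gene lists (vertical axis, with the number of members measured). Thick bars are list medians and the dashed line is the median of all genes tested, at -0.03. The type I interferon response has the highest median, 0.45, and the hair follicle keratins the lowest, -0.18.

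The p53 pathway was the other arm of the comparison. Of 27 p53 target genes 21 had a higher mean in IFNbeta than in p19Arf tumors, 5 were higher and 0 lower at an unadjusted p under 0.05, and in 0 of them were the groups free of overlap. Without IFNbeta replicate 5 or p19Arf replicate 4 the count of 5 was 1, and without IFNbeta replicate 3 it was 10. Of the 27 genes 14 were in the highest tertile by probe-set value and 13 in the middle tertile. A higher mean was found for 77.4% of all genes in the highest and 45.3% in the middle tertile, against 77.8% of the list. At an unadjusted p under 0.05, 15.7% and 8.55% of all genes in these tertiles were higher, against 18.5% of the list. No share matched to the levels of the list was computed. The list's median was 0.15, and 0.06 to 0.22 across settings. Tnfrsf10b, a death receptor for TRAIL, averaged 9.80 ± 0.27 in IFNbeta and 9.40 ± 0.18 in p19Arf tumors, and Eda2r, a receptor of the same family, averaged 8.24 ± 0.21 and 7.92 ± 0.29 (SD, n = 5 each). Mdm2, the ligase that degrades p53, was at 10.34, 10.26, 10.53, 10.35 and 10.47 on the IFNbeta arrays, against 10.50, 10.45, 10.31, 9.94 and 9.98 on the p19Arf arrays, a difference of 0.15 with overlap. The mean level of the list was 8.92 to 9.16 on the IFNbeta arrays, 8.70 to 9.01 on the p19Arf arrays and 8.77 to 8.91 on the eGFP arrays. Of 11 genes of the Arf and p53 axis itself 7 had a higher mean and 0 reached the threshold in either direction. Its median of 0.04 was -0.01 after quantile normalization, and also when array spread was a covariate. Npm1, the nucleolar binding partner of p19Arf, averaged 11.37 ± 0.15 in IFNbeta and 11.09 ± 0.27 in p19Arf tumors.

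Lists of growth and stress had small positive medians. For nucleolar and ribosome biogenesis genes 17 of 22 had a higher mean, 5 at an unadjusted p under 0.05, for cell cycle genes 27 of 30 and 4, for cell death effectors 16 of 18 and 3, for ER stress genes 17 of 18 and 4, and for hypoxia and glycolysis 14 of 19 and 4. In 0 of these genes were the groups free of overlap, and 0 passed over all genes. Nolc1, a nucleolar phosphoprotein, averaged 9.96 ± 0.29 in IFNbeta and 9.51 ± 0.20 in p19Arf tumors, Rrm2, a subunit of ribonucleotide reductase, 10.38 ± 0.28 and 9.96 ± 0.24, and Asns, asparagine synthetase, 11.59 ± 0.26 and 11.12 ± 0.33 (SD, n = 5 each). Casp8, the initiator caspase of death receptors, averaged 11.13 ± 0.10 and 10.79 ± 0.23, with a difference of 0.34 (limma adjusted p = 0.177). These lists lie mostly in the highest tertile of genes by probe-set value. There 77.4% of all genes had a higher mean in IFNbeta tumors and the median was 0.12. The nucleolar share of 77.3% and the hypoxia share of 73.7% were near that background. The shares of the cell cycle (90.0%), cell death (88.9%) and ER stress (94.4%) lists were above it. At an unadjusted p under 0.05 the shares of these lists were 13.3% to 22.7%, against 15.7% higher in that tertile. When array spread was a covariate the cell cycle median was -0.06 and the nucleolar median 0.01, against 0.19 and 0.15 without it. The 4 cell cycle genes at an unadjusted p under 0.05 were 12 without IFNbeta replicate 3 and 0 without p19Arf replicate 4, and the 5 nucleolar genes were 8 and 2.

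Transcripts of the tissue around a tumor varied from array to array. The skeletal muscle list had a mean level of 7.18, 8.20, 8.36, 9.17 and 7.75 on the IFNbeta arrays, against 8.30, 8.64, 7.17, 7.42 and 7.82 on the p19Arf arrays. The groups overlapped widely, and the list's median of 0.31 was -0.02 without IFNbeta replicate 4. For skin epidermis 11 of 12 genes had a higher mean with a median of 0.20, which was -0.12 without IFNbeta replicate 3. On that array Krt10, a keratin of differentiated epidermis, was at 10.41, against 6.89 to 7.01 on the other IFNbeta arrays and 7.02 to 7.22 on the p19Arf arrays. The epidermis difference thus came from 1 array. Of 14 hair follicle keratins 0 had a higher mean and 3 were lower at an unadjusted p under 0.05 (21.4%). Of these keratins 10 were in the lowest tertile by probe-set value. In that tertile 13.9% of all genes had a higher mean and 24.3% were lower at that threshold, so the called share was near that background. The median of the 14 keratins, -0.18, was -0.02 with the array spread as a covariate. Of 12 adipocyte markers 11 had a higher mean and 1 reached the threshold (0 without IFNbeta replicate 1 or 5, or p19Arf replicate 2 or 4), Scd1, the stearoyl-CoA desaturase, at 11.56 ± 0.58 in IFNbeta and 10.79 ± 0.78 in p19Arf tumors (SD, n = 5 each). Clock genes had a median of 0.00, with Bhlhe40, a repressor of the clock, at 9.71 ± 0.33 and 9.21 ± 0.14 and Tef, a clock output factor, at 8.57 ± 0.09 and 8.85 ± 0.18.

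**Figure D4:**
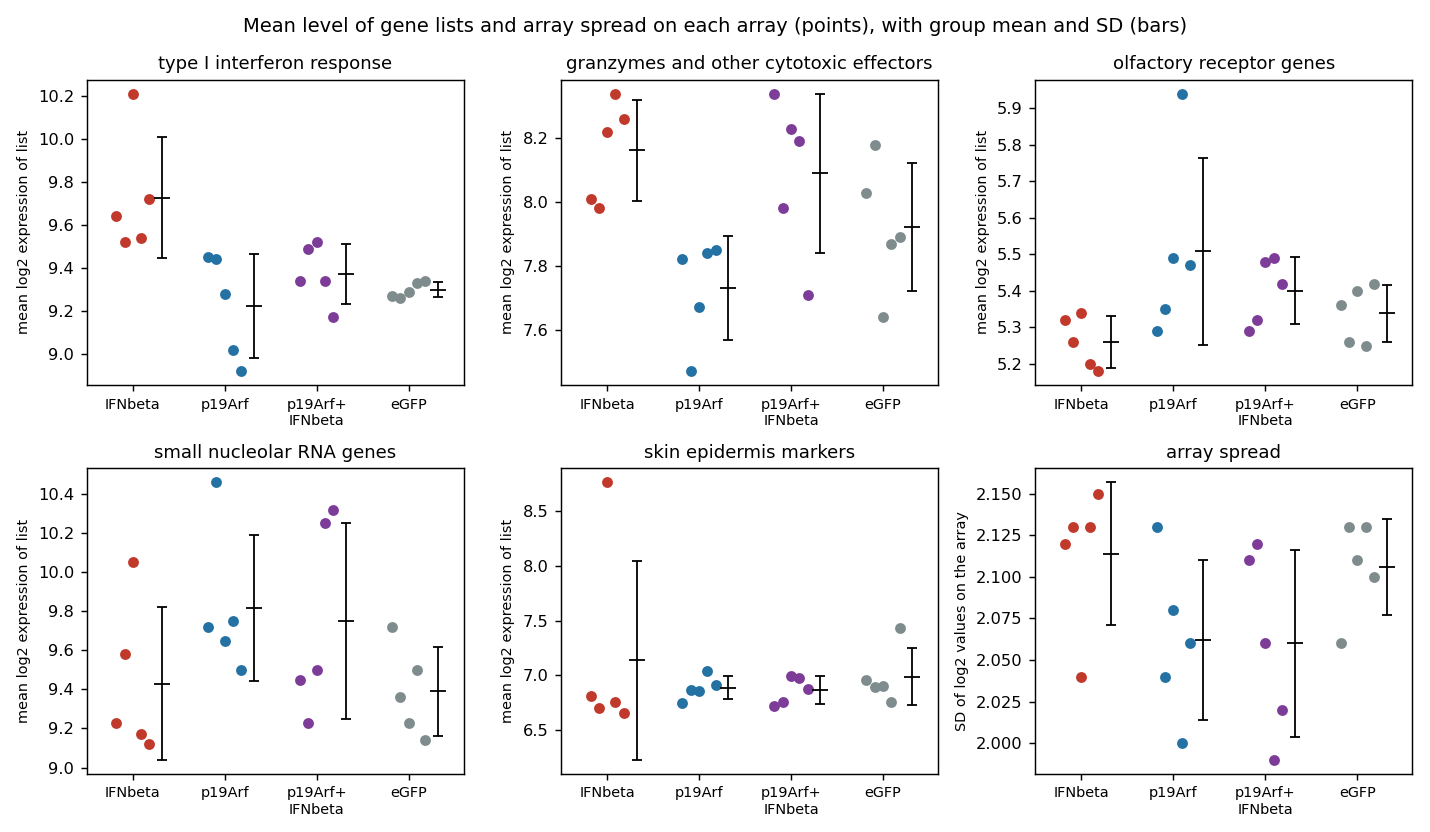
Mean log2 expression of 5 gene lists, and the SD of the log2 values on the array (bottom right), with 1 point per array, by vector group. Bars are the group mean and SD of 5 arrays. The IFNbeta and p19Arf arrays do not overlap in the interferon and cytotoxic lists, and in skin epidermis IFNbeta replicate 3 stands alone at 8.76.

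No gene passed as lower in IFNbeta than in p19Arf tumors, though 9 did without p19Arf replicate 1. The gene nearest to it was Pcdhb3, a clustered protocadherin of neurons, at 5.47, 5.58, 5.49, 5.40 and 5.11 on the IFNbeta arrays, against 5.68, 6.00, 5.85, 6.16 and 5.95 on the p19Arf arrays (difference -0.52, SE 0.10, limma adjusted p = 0.0848). Ctxn2, a cortexin, was at 5.54 to 5.89 in IFNbeta and 5.98 to 6.51 in p19Arf tumors (difference -0.47, limma adjusted p = 0.107). The other genes of smallest p without overlap were Stk32b, Optc, Vpreb3, H2-M10.2, Smim9, Hyi, Nms, Nudt18, Cenpb and Etnppl, with differences of -0.29 to -0.45 and adjusted p-values of 0.155 to 0.17. Among them were Cenpb, a centromere protein, and Hyi, the putative hydroxypyruvate isomerase, with Cenpb at 9.13 to 9.47 in IFNbeta and 9.48 to 9.88 in p19Arf tumors and Hyi at 8.81 ± 0.19 and 9.23 ± 0.17 (SD, n = 5 each). The mean with both vectors was nearer to the p19Arf mean in 9 of these 12 genes, as in Cenpb at 9.64, and nearer to the IFNbeta mean in 3, as in Ctxn2 at 5.79. These 12 genes were picked by small p and lack of overlap. The share among all genes with a lower mean is not given here, so the count has no background.

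Lower means in IFNbeta tumors were most frequent among genes of low value. Of 1027 olfactory receptor genes, which are expressed in the nose and lie at low values here, 979 had a lower mean in IFNbeta tumors and 440 had an unadjusted p under 0.05 (42.8%, against 12.4% of all genes), with a median of -0.25. Without p19Arf replicate 4 the count of 440 was 183 and the median -0.13. A covariate for array spread gave 138 and -0.14. The same direction was found for 149 of 167 vomeronasal receptor genes and 231 of 300 microRNA genes. In the lowest tertile of genes by probe-set value 13.9% had a higher mean in IFNbeta tumors and 24.3% were lower at an unadjusted p under 0.05, against 77.4% and 1.72% in the highest tertile. The median difference was -0.16 in the lowest, -0.03 in the middle and 0.12 in the highest tertile. The array spread, larger in IFNbeta than in p19Arf tumors, moved with this pattern, and its part in single genes was not tested beyond the fit with the spread as a covariate.

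Small nucleolar RNA genes were lower in mean without lying at low values. Of 51 of them 46 had a lower mean in IFNbeta tumors, 15 at an unadjusted p under 0.05 (29.4%, against 12.4% of all genes), with a median of -0.35. Of the 51 genes 33 were in the highest tertile by probe-set value, where 1.72% of all genes were lower at that threshold. The count of 15 was 5 without p19Arf replicate 2 or IFNbeta replicate 5 and 28 without IFNbeta replicate 3. A covariate for array spread left 3, with a median of -0.13. Snord118, the U8 RNA of ribosome maturation, was at 10.42, 11.13, 13.27, 10.11 and 10.44 on the IFNbeta arrays, against 12.49, 13.75, 12.74, 13.10 and 13.02 on the p19Arf arrays. IFNbeta replicate 3 lay inside the p19Arf range and the other IFNbeta arrays below it. Snora33 was at 8.15 to 10.35 in IFNbeta and 9.32 to 11.43 in p19Arf tumors. The mean level of the 51 genes with eGFP was 9.39, close to 9.43 in IFNbeta and below 9.81 in p19Arf tumors.

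**Figure D5:**
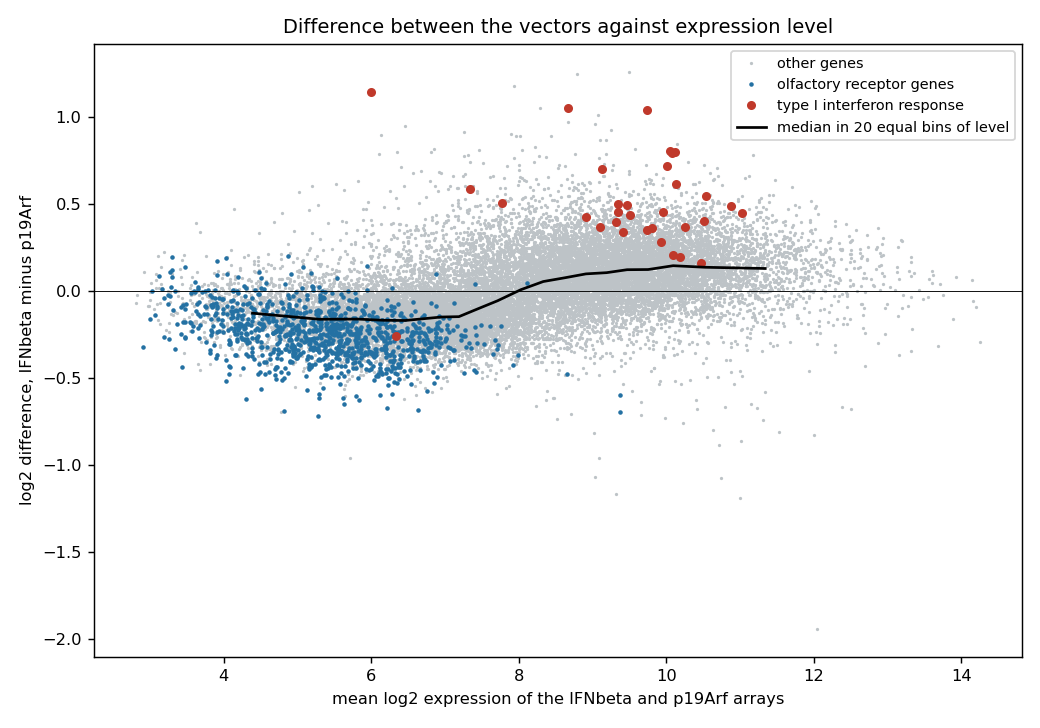
Log2 difference, IFNbeta minus p19Arf (vertical axis), against the mean log2 expression of the 10 arrays (horizontal axis), with 1 point per gene. Red points are type I interferon response genes, blue points olfactory receptor genes, and the line is the median in 20 bins of equal gene number. The line runs below 0 at low values and above 0 at high values, and most interferon genes lie above it.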

How the data were processed

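Gene expression was measured on 1-colour Affymetrix arrays of 20 LLC-1 tumors, 5 per vector group, after Trizol extraction and biotin labelling, per the labels. The deposited table held 35556 probe sets as log2 values, summarised per probe set by the authors, with array medians about equal. They ran from 2.33 to 14.7, and the log base was read from this range. The submitters' processing notes list 2 programs, Affymetrix Expression Console and GCOS. The methods of summarising, background correction and filtering were not given in the sources used here. The table carries no detection call, so a low value may be background.

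Gene names came from the array's platform annotation and were brought up to date with RefSeq (GRCm38.p6), which was used for names and promoter windows only. Of the probe sets, 21789 had 1 symbol, 1621 several, and 12146 were not listed. For the 999 genes with several probe sets, the one of highest mean over the 20 arrays was used, which left 19938 genes with no filter on low values. The 4 group means were estimated over all 20 arrays with limma 3.58.1 in R 4.3.3 (lmFit, eBayes, 2-sided tests, Benjamini-Hochberg over all genes, threshold 0.05), and the fit was tested on simulated data. Ifnb1 and Cdkn2a were tested by exact permutation. The number of arrays limits the precision.

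The 32 gene lists held 581 members, of which 533 were measured, and were described by counts and medians alone. The comparison, its members and the lists were chosen with earlier results of these data known. Named were the vector genes, the 12 genes per direction of largest change among those that passed, filled up by smallest p among genes without overlap, and up to 4 genes per list of largest moderated t, with any member opposite to them. Family members, defining markers of a cell type and small nucleolar RNA genes named beyond this rule were chosen after their values were seen. The alternatives were quantile normalization, median centring, the array spread as a covariate, trended and robust moderation, array weights, the 10 arrays alone, a filter below the 30th percentile of level, the mean of a gene's probe sets, the replicate number as a block, and arrays left out.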

Additional observations from a re-analysis of the deposited data

Results flagged for a closer look

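Within groups of 5 arrays, the highest or lowest array was compared with its nearest neighbour, and the gap over the group's range was set against Dixon's 95% value of 0.71. Of 364 groups 35 exceeded it (9.62%, where chance gives about 5%), 16 of them on IFNbeta replicate 3.

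On IFNbeta replicate 3 interferon genes were high. Ifnb1 was at 6.65 (others 6.03 to 6.20), Ifit3b at 7.45 (6.20 to 6.54) and Phf11d at 9.96 (8.92 to 9.11), and the type I interferon response list had a mean of 10.21 (9.52 to 9.72). Skin genes were high on the same array: Krt1 at 8.94 (5.85 to 6.19), Krt5 at 9.93 (6.84 to 7.03), Krtdap at 8.57 (5.37 to 5.65) and Krt10 at 10.41 (6.89 to 7.01), with a list mean of 8.76 (6.66 to 6.81). The transcription factor Batf3 was at 8.50 (7.78 to 7.94). Low on it were the T cell costimulator Cd28 at 7.16 (7.48 to 7.61), the macrophage marker Cd68 at 10.80 (11.39 to 11.49), the nucleolar genes Nolc1 at 9.46 (9.99 to 10.20) and Dkc1 at 9.13 (9.85 to 9.91), Dcn at 11.26 (12.05 to 12.32) and the cell cycle list at 9.80 (10.20 to 10.30). Other IFNbeta arrays gave Smim9 at 5.06 and Casp8 at 10.95, both the lowest on replicate 2, and Havcr2 at 8.97, the highest, and Krt18 at 6.83, the lowest, on replicate 5.

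Of the p19Arf arrays, replicate 2 was the highest for Smim9 at 5.64, Nlrc5 at 11.85, Ccl7 at 11, Il6 at 5.63, Gsdmd, the pore-forming gasdermin, at 9.79 and the small nucleolar RNA genes at a mean of 10.46. Replicate 3 was the highest for Ms4a1 at 7.65, the B and plasma cell list at 8.01, the T cell list at 8.04 and Csf3 at 7.05, and the lowest for Krt10 at 7.02. Replicate 5 was the lowest for Ms4a4d at 6.99, Cd244a at 8.13 and the MHC class I list at 10.50, and replicate 4 for the endothelial list at 8.05.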

How the results depend on the processing

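The 5 genes past the threshold became 0 after quantile normalization (smallest limma adjusted p 0.0535), 0 with the array spread as a covariate, 0 with only the 10 arrays, 0 without IFNbeta replicate 3 and p19Arf replicate 4 together, 1 with the filter on low values and 4495 with array weights (1723 higher, 2772 lower). In those 4 settings with 0 genes limma gave 1502 to 3802 genes at an unadjusted p under 0.05. With single replicates left out the count ran from 0 (with 1961 to 4808 genes at an unadjusted p under 0.05) to 28, the 28 without p19Arf replicate 1. Median centring, trended and robust moderation and the mean of probe sets gave 5 each. Equal replicate numbers, which on replicates 2, 3 and 4 are also equal tumor numbers, did not pair the arrays (correlations of -0.012 to -0.315), and the replicate block gave 1 gene, Ifi213, and 0.21 for Ifnb1 and -0.20 for Cdkn2a. Ifnb1 was 0.31 after quantile normalization and 0.31 with the spread as a covariate (limma unadjusted p = 0.0301) and 0.10 to 0.26 with replicates left out, and Cdkn2a was -0.28 with array weights and -0.25 to -0.14 with replicates left out.

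Of 2897 values of 146 other named genes under these alternatives 2725 kept direction and side of the threshold. Most of these genes had not passed, so keeping their side shows little. Only the 5 genes past the threshold could lose the call, and they did in 62 values. Phf11d stayed past it in 9 of 20 alternatives, Ifit3b in 8 of 19, Ifi213 and Ifi207 in 7 of 20 each and Ms4a4d in 6 of 20. A call was gained in 101 values (92 of them with array weights), and 9, in 5 genes, changed sign. Psme2 was -0.05 with the spread as a covariate. Without IFNbeta replicate 3 and p19Arf replicate 4 Krt1 was -0.03, Krt5 -0.00164, Krtdap -0.14 and Krt10 -0.20, and with single replicates left out these ran from -0.05 to 0.72, -0.07 to 0.70, -0.14 to 0.66 and -0.21 to 0.67, the lowest always without IFNbeta replicate 3. Of 680 list medians under these alternatives 30, in 13 lists, changed sign. The skin epidermis median, 0.20, was -0.12 without IFNbeta replicate 3, a shift below 1 SD of that list's mean level between arrays. By at least such an SD 8 medians moved. B and plasma cell markers were -0.58 with array weights. With the spread as a covariate macrophage markers were 0.03, dendritic cell markers 0.02, chemokines -0.00247, nucleolar genes 0.01, cell cycle -0.06 and hair follicle keratins -0.02. Clock genes ran from 0.01 to 0.16 with replicates left out. The cause of these shifts was not tested. Without detection calls or background estimates, differences among genes of low value are limited in what they can show.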
